A study of Homo sapiens with 4 samples.

Results

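Records of human microRNA hairpins with a level above 0 were described in RNA recovered from DU-145 cells in a miRNA pull out. DU-145 is a line established from a human prostate carcinoma. The records were chosen by the measured values, as records under 200 bases whose gene symbol is that of a microRNA and whose FPKM was above 0, with status OK, in at least 1 of 4 libraries. This gave 86 of the 2015 hairpin records in a list of 53209 RefSeq transcripts (4.27% of the hairpin records). Being above 0 is therefore what chose them and is given as a description. The control arm, miR-28CT, was 2 libraries from cells transfected with 60 nM of an untagged miR-28-5p duplex. The other arm, miR-28BIO, was 2 libraries from cells transfected with the same total of a mix of miR-28-5p duplexes that carried biotin at the 3′ end and a thiouridine at nucleotide 8 or at nucleotide 18. Cells of both arms were exposed to ultraviolet light of 365 nm 24 hours after transfection, and 15 μg of their RNA was incubated with streptavidin beads. All 4 libraries thus come from cells loaded with added miR-28-5p, none comes from untransfected cells, and the RNA in the control libraries is what beads retained without a tag. One cell line was used, with 2 biological replicates numbered 1 and 2 in each arm. Where 4 values stand together they follow the order of miR-28CT replicate 1, miR-28CT replicate 2, miR-28BIO replicate 1 and miR-28BIO replicate 2, and a pair of values for an arm begins with replicate 1.

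MicroRNA genes are transcribed as long primary transcripts, often as introns of other genes, in which the microRNA lies within a hairpin. The nuclease DROSHA with DGCR8 cuts the hairpin out, DICER1 trims it to a short duplex, and one strand of the duplex guides an Argonaute protein to messenger RNAs through its seed, the bases near its 5′ end. Libraries of total RNA made by fragmentation and random priming do not capture mature microRNAs well, so a read within a hairpin record may come from any longer RNA that holds the same bases.

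RefSeq (GRCh38.p14) lists mature sequences for 80 of the 86 records, 117 sequences as read here, and among these 117 no seed (bases 2 to 8) occurred in more than 1 of them. They are therefore shown singly, with the seed in capitals and in the order of their description. The first set holds the matures of records that were above 0 in all 4 libraries, since they can be compared in every library. MIR612 is the third record of that kind.
hsa-miR-3654: gACUGGACaagcugaggaa
hsa-miR-5047: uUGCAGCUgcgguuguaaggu

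The second set is that of the 3 records above 0 in both miR-28BIO libraries and at 0 in both miR-28CT libraries. Both mature sequences follow of the 1 record that was higher in both miR-28CT libraries than in both miR-28BIO libraries. These are the records on which the comparison of the arms turns.
hsa-miR-6081: aGGAGCAGugccggccaaggcgcc
hsa-miR-4742-5p: uCAGGCAAagggauauuuacaga
hsa-miR-4742-3p: uCUGUAUUcuccuuugccugcag
hsa-miR-6132: aGCAGGGCuggggauugca
hsa-miR-7111-5p: uGGGGGAGgaaggacaggccau
hsa-miR-7111-3p: aUCCUCUCuucccuccucccag

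The third set shows the mature microRNA that shares its bases with a small nucleolar RNA, and then those of the 3 records just inside the limit of being above 0.
hsa-miR-1248: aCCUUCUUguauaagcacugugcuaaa
hsa-miR-3916: aAGAGGAAgaaauggcugguucucag
hsa-miR-6740-5p: aGUUUGGGauggagagaggaga
hsa-miR-6740-3p: uGUCUUCUcuccucccaaacag
hsa-miR-5191: aGGAUAGGaagaaugaagugcu

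The hairpins above 0 were few and differed more between replicates than between arms. In miR-28CT replicate 1, 16 hairpin records were above 0. In miR-28CT replicate 2 the number was 38. In miR-28BIO replicate 1 it was 22, and in miR-28BIO replicate 2 it was 48. Both replicate 2 libraries thus had more hairpins above 0 than both replicate 1 libraries, and the arms overlapped. Within each replicate number miR-28BIO had more than miR-28CT (22 against 16 and 48 against 38). The records under 200 bases of all kinds were also more often above 0 in replicate 2, with 125, 189, 106 and 208 of 2691 in the 4 libraries. Between arms they did not follow the hairpins in replicate 1, where miR-28BIO had fewer (106 against 125). Over all 53209 records the libraries were close to each other, with 17397, 17377, 17409 and 18093 above 0. In bulk samples such as these, fewer cells with an RNA and less RNA per cell cannot be told apart.

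Most hairpins were seen in a single library. Of the 86 records, 58 were above 0 in 1 library, 21 in 2, 4 in 3 and 3 in all 4. Only replicate 2 libraries held 57 of them, only replicate 1 libraries held 18, and 11 were found in both. By arm, 25 were found in miR-28CT libraries only, 36 in miR-28BIO libraries only and 25 in both. The replicate number thus divided the records more than the arm did. The replicate 2 libraries shared 18, the most of any pair, which is 47.4% of those in miR-28CT and 37.5% of those in miR-28BIO. The replicate 1 libraries shared 9 (56.2% and 40.9%), and the miR-28BIO libraries shared as many (40.9% of replicate 1 and 18.8% of replicate 2). The miR-28CT libraries shared 4 (25% of replicate 1 and 10.5% of replicate 2).

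The level of a hairpin rested on very few reads. FPKM give the fragments of a transcript relative to its length and to the depth of the library, and for records this short Cufflinks divides by an effective length, the number of positions at which a fragment of typical length would fit, in place of the record's own length. A record of 56 bases has an effective length of 0.516 and one of 100 bases an effective length of 3.11. The bounds of the deposited interval, by contrast, were whole numbers of reads over the full length (within 0.02) in 96.8%, 96.8%, 96.2% and 96.2% of the short records above 0. These steps placed the total behind the values at 18.5, 13.5, 17.9 and 15.2 M reads, where about 20 M per sample were stated. They also gave the reads behind 112 of the 124 hairpin values above 0. The median was 2 reads, 63 of the 112 values (56.2%) rested on 1 or 2 reads, 24 on 5 or more and 7 on 10 or more. Of the 86 records, 17 reached 5 reads in any library by a resolved value. Unresolved values, among them those of MIR1248, MIR6516 and MIR492, are not in this count.

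**Figure D1:**
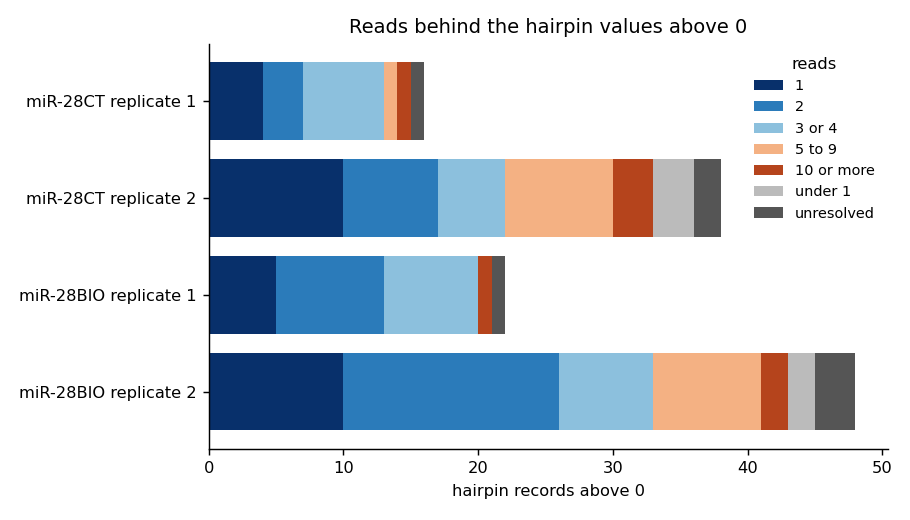
Number of hairpin records above 0 in each library, divided by the reads behind the value. Bars show 16, 38, 22 and 48 records, and the 4 darkest segments, of 1 read, hold 4, 10, 5 and 10 of them. Unresolved values are those whose bounds gave no whole number over the full length, and "under 1" marks levels below what 1 read would give.

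Summed over the resolved records, miR-28CT replicate 1 had 58 hairpin reads (95% Poisson interval 44 to 75, or 3.13 per M reads of the library). In miR-28CT replicate 2 the sum lay between 148 and 174 (125 to 202, with 11.0 to 12.9 per M reads), since 2 records gave a range. In miR-28BIO it was 73 in replicate 1 (57.2 to 91.8, 4.07 per M reads) and 156 in replicate 2 (132 to 182, 10.3 per M reads). The replicate 2 libraries of both arms were above the replicate 1 libraries beyond these intervals, whereas the miR-28BIO and miR-28CT libraries of the same number had overlapping intervals. Intervals cover counting error only, since reads from amplified libraries without molecular identifiers are not independent molecules.

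Because of the effective length, 1 read was worth many FPKM. In miR-28CT replicate 1, a single read in a record of 56 bases gave 104.6 FPKM and a single read in a record of 100 bases gave 17.3 FPKM. Nearly all hairpin levels accordingly lay above the upper bound of their own interval, in 15 of 16 values in miR-28CT replicate 1, 32 of 38 in miR-28CT replicate 2, 21 of 22 in miR-28BIO replicate 1 and 43 of 48 in miR-28BIO replicate 2. A hairpin FPKM cannot be set beside that of a long transcript for this reason. Reads per kilobase of the full record and M reads, called plain density from here on, are used where a hairpin is set beside the gene that holds it.

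The replicates also differed in how a read was turned into FPKM. In the replicate 1 libraries the level was a whole number of reads over the effective length in 98.3% (miR-28CT) and 98.1% (miR-28BIO) of low values of short records. In the replicate 2 libraries this held for 1.13% and 3.57%. There the FPKM of 1 read was 0.0738 to 3.76 times the value that length alone gives in miR-28CT and 0.153 to 3.74 times in miR-28BIO. This factor went in large part with the record. Over 99 short records resolved in both, its log2 correlated at a Pearson r of 0.85 and a Spearman rho of 0.854. These records share genome positions, annotation and processing, so the correlation is a description. The factor still differed between the arms for single records. MIR7111 had 211 FPKM from 5 reads in miR-28CT replicate 2 and 26.7 FPKM from 2 reads in miR-28BIO replicate 2. A weight per record of this kind was absent from replicate 1. Whether the authors ran replicate 2 with another setting was not tested, and the arms are balanced over the replicates.

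**Figure D2:**
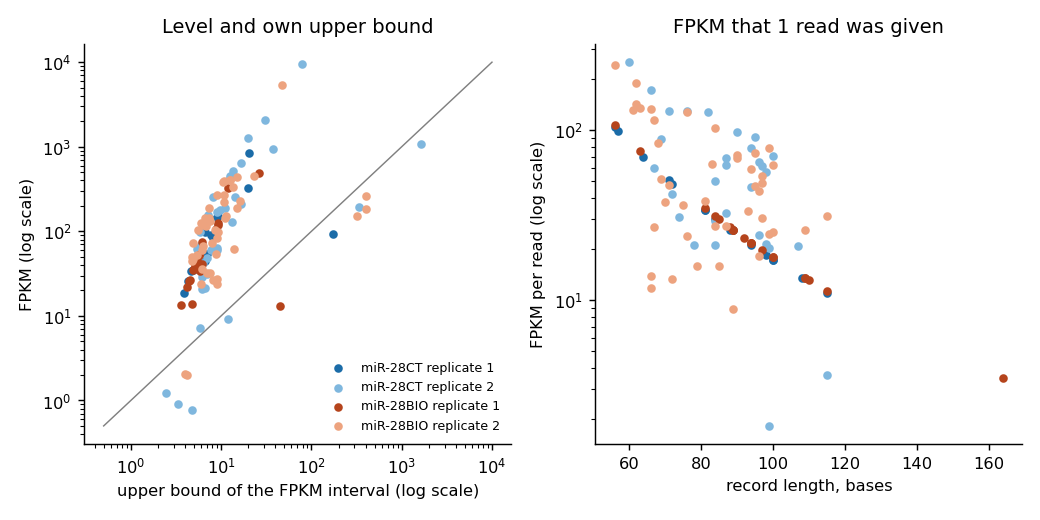
Hairpin values above 0 in the 4 libraries (left, FPKM against the upper bound of its interval, both on log scales, with a line of equality) and the FPKM given to 1 read against record length (right, log scale). Most points lie above the line, and the points of replicate 1 follow a single curve of length whereas those of replicate 2 scatter around it.

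**Figure D3:**
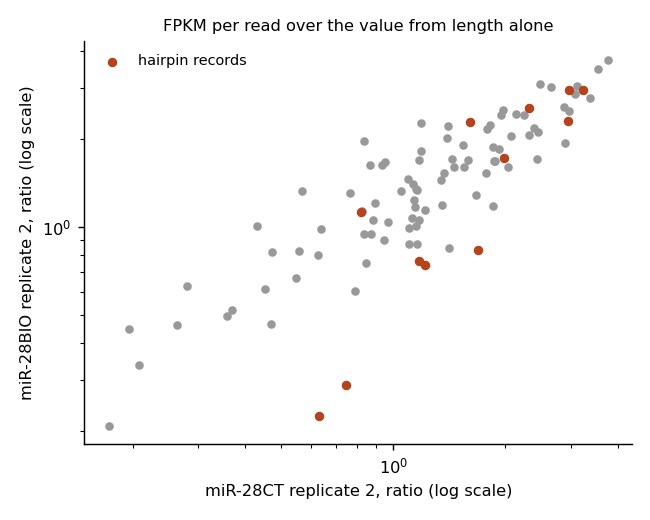
FPKM per read divided by the value from length alone, for 99 records under 200 bases resolved in both replicate 2 libraries, on log scales. Hairpin records are in colour, and the factors of the same record correlated between miR-28CT and miR-28BIO without being equal.

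MIR28, the hairpin of the microRNA that was transfected, lies within the LPP gene (chromosome 3, 188688781 to 188688866 of hg38, plus strand). It was at 0 FPKM with status OK in all 4 libraries. At its length of 86 bases, 3 reads, about the one-sided 95% limit of a count of 0, would have been 83.9, 116, 86.7 and 102 FPKM by length alone in the 4 libraries. A single read would have been 27.98, 38.5, 28.9 and 34.1 FPKM. LPP, which encodes a focal adhesion protein, had 6.05, 3.69, 6.38 and 5.60 FPKM, summed over 3 records. The amount of the transfected duplex, which is shorter than the hairpin, is not measured by this record, and MIR28 is not among the 86.

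MIR3654 had the highest FPKM of any hairpin in 3 of the 4 libraries. It is a record of 56 bases on the minus strand of chromosome 7 (133034860 to 133034915), inside a processed pseudogene that lies in an intron of CHCHD3. It had 837 and 9607 FPKM in the miR-28CT libraries and 324 and 5327 FPKM in the miR-28BIO libraries. Both replicate 2 values were above both replicate 1 values and the arms overlapped. The levels stand for 8 reads in miR-28CT replicate 1, 27 to 40 in miR-28CT replicate 2, 3 in miR-28BIO replicate 1 and 22 in miR-28BIO replicate 2. The fitted difference between miR-28BIO and miR-28CT was -1.28 on the log2(scaled FPKM + 0.1) scale (limma, standard error 2.67, adjusted p = 1.00), and with a library left out it ran from -3.28 to 0.72, so its sign turned. Within the same replicate number it was lower in miR-28BIO in both pairs, with differences of -1.36 and -1.21, and with the replicate number as a block the standard error was 0.37 (limma, adjusted p = 0.421).

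The 56 bases of MIR3654 occur unchanged (0 differences) in the spliced messenger RNA of EEF1G, which encodes the gamma subunit of translation elongation factor 1. A second MIR3654 record is placed there, on chromosome 11 (62560163 to 62560306) with an intron between its ends, and had status LOWDATA and 0 FPKM in all 4 libraries. In the genome the longest exact stretches elsewhere were 46 bases on chromosome 7, 36 on chromosome X and 32 in EEF1G, all under the read length of 50. EEF1G had 31.8, 53.0, 17.4 and 18.6 FPKM in the 4 libraries. The plain density of MIR3654 was 7.71, 35.8 to 53.1, 2.99 and 25.8 in that order, below or near EEF1G in each library but miR-28BIO replicate 2. CHCHD3, in whose intron the chromosome 7 copy lies, had 16.6, 5.31, 9.23 and 4.00 FPKM. Reads of the pseudogene and of spliced EEF1G that fall within these bases cannot be told apart.

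MIR5047 led miR-28BIO replicate 1 and had the most even levels of the 3 records seen in every library. It lies on the minus strand of chromosome 17 (64501214 to 64501313), in DDX5, an RNA helicase that is itself a cofactor of DROSHA, in an intron of the canonical transcript that other transcripts keep as exon. Its FPKM were 329 and 948 in the miR-28CT libraries and 484 and 456 in the miR-28BIO libraries. Both miR-28BIO values lay between the miR-28CT values. The reads were 19, 27 to 40, 27 and 18, the highest counts of any hairpin in 2 of the libraries. The fitted difference was -0.42 (limma, log2 scale, standard error 1.15, adjusted p = 1.00), and its sign turned with a library left out (-1.35 to 0.50). Its plain density was 10.3, 20.1 to 29.7, 15.1 and 11.8, against 48.2, 18.7, 38.7 and 20.4 FPKM of DDX5. Density in the hairpin thus stood below the FPKM of DDX5 in 3 libraries and at or above it in miR-28CT replicate 2. Whether the DDX5 record counts the bases of the hairpin as exon was not tested.

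MIR3064, which lies in the same stretch of DDX5 and was chosen after its values were seen, was at 0 in both replicate 1 libraries. It had 12 reads in miR-28CT replicate 2 and 2 in miR-28BIO replicate 2. The pair shows how neighbouring hairpins of 1 host can differ in being above 0.

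MIR612 lies in an exon of the long form of NEAT1, the noncoding RNA that scaffolds nuclear paraspeckles (chromosome 11, 65444458 to 65444557, plus strand). Its FPKM were 34.7 and 423 in the miR-28CT libraries and 35.8 and 124 in the miR-28BIO libraries. The levels stand for 2, 6, 2 and 2 reads. Replicate 2 was above replicate 1 in both arms, while in reads only miR-28CT replicate 2 stood apart. The fitted difference was -1.03 (limma, log2 scale, standard error 1.61, adjusted p = 1.00), and with a library left out it reached 0.93, so that its sign turned too. The deposited NEAT1 record ends at 65426532, short of the hairpin, and had 32.8, 15.4, 35.8 and 13.3 FPKM, so the hairpin is the only listed record at this place that reads the long form.

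**Figure D4:**
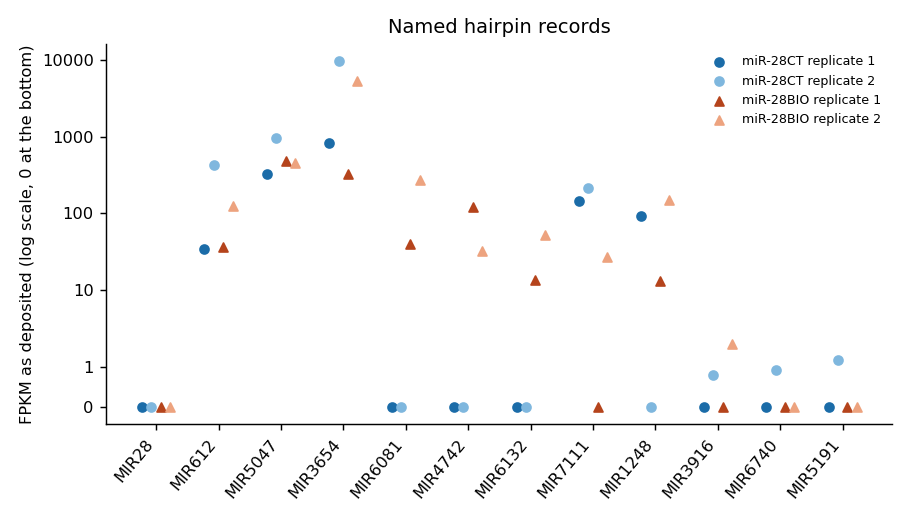
FPKM as deposited (log scale, with 0 drawn at the bottom) of the 12 hairpin records named by rule, with circles for miR-28CT and triangles for miR-28BIO libraries. MIR28 is at 0 in all 4, MIR3654, MIR5047 and MIR612 are above 0 in all 4, and MIR6081, MIR4742 and MIR6132 are above 0 in miR-28BIO libraries only.

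To ask which hairpins the tagged duplexes brought down beyond the bead background, the arms were compared in a fit over all 15587 transcripts with status OK in all 4 libraries and a mean scaled FPKM of at least 0.5. Of the 86 hairpin records, 84 passed this filter and MIR6740 and MIR5191 did not. With limma, 0 of the 84 were called in either direction at an adjusted p of 0.05, against 0.00% of all tested transcripts. Taken without adjustment, p was under 0.05 with a positive difference in 3 of the 84 (against 2.09% of all tested) and with a negative one in 0 (1.49%). These 3 are MIR6081, MIR4742 and MIR6132, which were at 0 in both miR-28CT libraries and so have no measured spread in the control arm, and nothing is read from the count. The arms did not overlap, with miR-28BIO on top, in 3 of the 84 (3.57%, against 11.5% of all tested), and with miR-28CT on top in 1 (1.19%, against 12%). A record above 0 in 1 library only, as were 58 of the 86, cannot have arms apart. The low shares therefore follow from the choice of the records. The median difference was 0.35 over the 84 records and -0.08 over all tested. Fitted differences of records at 0 in an arm depend on the pseudocount, and no fold is given for a record at 0 in both libraries of an arm. Over the 25 above 0 in both arms the median was -0.40, with 11 positive and 14 negative. With 2 libraries against 2, an exact permutation test cannot give a two-sided p below 0.333, so single records were not tested in that way.

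These counts turned with single libraries, as the choice of the records makes them do. A record above 0 in 1 library only is apart once the other library of its arm is left out. Of the 86 records, 58 are of this kind. The records apart in favour of miR-28BIO numbered 5 of 78 tested without miR-28CT replicate 1 (6.41%, against 27.5% of all tested transcripts in that fit), 6 of 67 without miR-28CT replicate 2 (8.96%, against 23.9%), 35 of 76 without miR-28BIO replicate 1 (46.1%, against 27.1%) and 14 of 58 without miR-28BIO replicate 2 (24.1%, against 30.8%). The records apart in favour of miR-28CT numbered 31 (39.7%, against 37.5%), 8 (11.9%, against 31.4%), 1 (1.32%, against 25.5%) and 2 (3.45%, against 30.4%) in that order. The median difference was 3.93, 4.47, 4.17 and -4.28. These counts, shares and medians restate which libraries held the chosen records, and nothing about the arms is read from them. Each of these fits leaves an arm with 1 library that is assumed to vary like the other arm.

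MIR6081, in an intron of AOPEP, which encodes an aminopeptidase (chromosome 9, 95065350 to 95065446, plus strand), was listed at 0 in both miR-28CT libraries. It had 39.5 and 271 FPKM in the miR-28BIO libraries, that is 2 and 5 reads. The arms did not overlap, and the exact Poisson interval of 2 reads (0.242 to 7.22) overlapped that of 0 reads, which reaches 3.69 (two-sided 95%). AOPEP had 1.63 and 2.91 FPKM in the miR-28CT and 1.32 and 2.50 FPKM in the miR-28BIO libraries. It was lower in miR-28BIO within each replicate number while its arms overlapped.

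MIR4742 lies in an intron of WDR26, a subunit of a ubiquitin ligase complex (chromosome 1, 224398227 to 224398311, minus strand). It was listed at 0 in both miR-28CT libraries and had 119.98 and 31.95 FPKM in the miR-28BIO libraries, from 4 and 2 reads. Here replicate 1 was the higher of the miR-28BIO libraries. WDR26 had 13.7 and 4.33 FPKM in miR-28CT and 19.6 and 9.81 FPKM in miR-28BIO, higher in miR-28BIO within each replicate number while the arms overlapped.

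MIR6132, in an intron of the canonical ST7 transcript that another transcript keeps as exon (chromosome 7, 117020211 to 117020319, plus strand), rested on the fewest reads of the 3. It was listed at 0 in both miR-28CT libraries and had 13.6 and 52.0 FPKM in the miR-28BIO libraries, from 1 and 2 reads. ST7 had 3.61 and 1.72 FPKM in miR-28CT and 3.34 and 5.58 FPKM in miR-28BIO libraries, with arms that overlapped.

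MIR7111 was the 1 record whose arms did not overlap with miR-28CT on top. It lies in an intron of RPL10A, a protein of the large ribosomal subunit (chromosome 6, 35470508 to 35470579, plus strand). Its FPKM were 146 and 211 in the miR-28CT libraries, from 3 and 5 reads, and 0 and 26.7 in the miR-28BIO libraries, from 0 and 2 reads. The arms did not overlap in FPKM, and the Poisson intervals of 5 and 2 reads (1.62 to 11.7 and 0.242 to 7.22) overlapped. The fitted log2 difference was -6.88 (limma, standard error 2.88, adjusted p = 1.00). It moved to -2.90 without miR-28BIO replicate 1, the library at 0. Without miR-28BIO replicate 2 it was -10.85, a size that depends on the pseudocount, since only the library at 0 remained in that arm. By plain density the replicate 2 libraries lay closer than by FPKM, at 5.16 in miR-28CT and 1.83 in miR-28BIO. RPL10A itself had 74.5 and 167 FPKM in miR-28CT and 19.04 and 52.9 FPKM in the miR-28BIO libraries, and its arms did not overlap either. The part of the host transcript in the hairpin's values was not tested.

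MIR1248 and MIR6516 share their bases with structural RNAs. MIR1248 (chromosome 3, 186786672 to 186786777, plus strand) overlaps SNORA81, a small nucleolar RNA in an intron of the translation factor gene EIF4A2. MIR1248 had 93.3 and 0 FPKM in the miR-28CT libraries and 13.0 and 149.8 FPKM in the miR-28BIO libraries, and the arms overlapped. The fitted log2 difference was 3.80 (limma, standard error 3.72, adjusted p = 1.00). It was -1.09 without miR-28CT replicate 2, the library at 0, so its sign turned. Without miR-28CT replicate 1 it was 8.69, a size that depends on the pseudocount, since only the library at 0 remained in that arm. SNORA81 had 52.9, 63.4, 13.7 and 161 FPKM in that order and EIF4A2 had 64.4, 29.0, 50.5 and 30.4. Reads within the shared bases cannot be told apart, and the bounds of MIR1248 were not whole reads over its full length, so its reads were left unresolved. In miR-28CT replicate 2, MIR1248 was at 0, with a deposited upper bound of 76.1 FPKM, while SNORA81 was not at 0.

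MIR6516, chosen after its values were seen, overlaps SCARNA16, a guide RNA of Cajal bodies, on chromosome 17. It was at 0 in both replicate 1 libraries and had 1089 FPKM in miR-28CT and 185 FPKM in miR-28BIO replicate 2. SCARNA16 had 21.9 and 313 FPKM in miR-28CT and 0 and 47.0 FPKM in the miR-28BIO libraries, so both records were highest in miR-28CT replicate 2.

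Hairpins in pseudogenes of abundant messenger RNAs numbered 3 with at most 8 differences from the parent RNA, and 2 of them follow here, chosen after their values were seen. MIR4426 lies in a pseudogene of RPS27A, a ribosomal protein made as a fusion with ubiquitin, and differs from RPS27A in 1 of 63 bases. A further MIR4426 record, placed in RPS27A on chromosome 2 (55234164 to 55234849), had status LOWDATA and 0 FPKM in each library, like that of MIR3654 in EEF1G. It was above 0 in miR-28BIO replicate 1 only, from 1 read, where RPS27A had 20.6 FPKM, its lowest level. MIR492 lies in KRT19P2, with 8 differences in 116 bases from the keratin gene KRT19. It was above 0 in the replicate 2 libraries only, at 193 FPKM in miR-28CT and 259.8 FPKM in miR-28BIO, and these were also the libraries in which KRT19 was highest (78.4 and 57.2 FPKM, against 36.6 and 21.3 in replicate 1). The deposited KRT19P2 record itself was at 0 FPKM in each library, and the reads of MIR492 were left unresolved.

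The lowest hairpin levels above 0 belonged to MIR3916, MIR6740 and MIR5191, all on chromosome 1. MIR3916 (247201967 to 247202060, minus strand, in an exon of a long noncoding RNA) had 0.774 FPKM in miR-28CT replicate 2 and 1.99 FPKM in miR-28BIO replicate 2. MIR6740 (202003124 to 202003236, plus strand, in an intron of the aminopeptidase gene RNPEP) had 0.903 FPKM in miR-28CT replicate 2. MIR5191 (201719508 to 201719627, plus strand, in an intron of NAV1) had 1.24 FPKM in miR-28CT replicate 2. Each was at 0 in the libraries not given here, and each level was below that of 1 read. MIR6740 at 1 read would have had 16.1 FPKM in that library by length alone. Just outside the limit, MIR935 had 279.8 FPKM in miR-28BIO replicate 2 but status LOWDATA, and MIR663A and MIR3648-1 each had a record with status HIDATA and 0 FPKM in both replicate 2 libraries. The status was LOWDATA for 108 hairpin records in each library.

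Inside other genes lay a larger share of the 86 records than of the remaining hairpins. Position was not used in the choice, and the shares are a description without a test. GENCODE 44 places 80 of the 86 (93.0%) inside another gene on the same strand, against 1271 of the 1746 other hairpin records with a known strand (72.8%). Introns held 57 of the 86 (66.3%, against 52.7%), exons of transcripts other than the canonical one held 14 (16.3%, against 9.11%), canonical exons 7 (8.14%, against 10.6%) and structural RNAs 2 (2.33%, against 0.344%). On the opposite strand of a gene lay 3 (3.49%, against 13.3%), and away from any other gene another 3 (3.49%, against 13.9%). MIR645, MIR3685 and MIR4522 were those away from other genes, named here after their values were seen, and none had more than 2 reads in a library. The library kit keeps the strand, but whether the authors' Cufflinks run used it is not stated, so reads from the opposite strand cannot be told apart.

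The genes around the hairpins were also more abundant. Longer deposited records covered 66 of the 86 hairpins, with a median of 8.21 FPKM (summed over the covering records, mean over the 4 libraries, quartiles 3.49 and 13.9), and 1205 of the other 1929, with a median of 0.931 FPKM (quartiles 0 and 4.32). Where the covering records lay below 0.1 FPKM, 3 of 429 hairpins were above 0 (0.699%). Between 0.1 and 1 FPKM these were 2 of 184 (1.09%), between 1 and 10 FPKM 41 of 513 (7.99%), between 10 and 100 FPKM 19 of 140 (13.6%) and from 100 FPKM 1 of 5 (20.0%). The share of hairpins above 0 was thus higher where the gene over them was more abundant, which is given as a description without a test. The hairpin at the top was MIR6728, in an intron of the glycolytic enzyme gene ENO1, named after its values were seen. It had 0 and 129 FPKM in miR-28CT, from 0 and 5 reads, and 51.9 and 61.9 FPKM in the miR-28BIO libraries, from 2 and 7 reads. In replicate 2 it was thus higher in miR-28CT by FPKM and in miR-28BIO by reads.

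**Figure D5:**
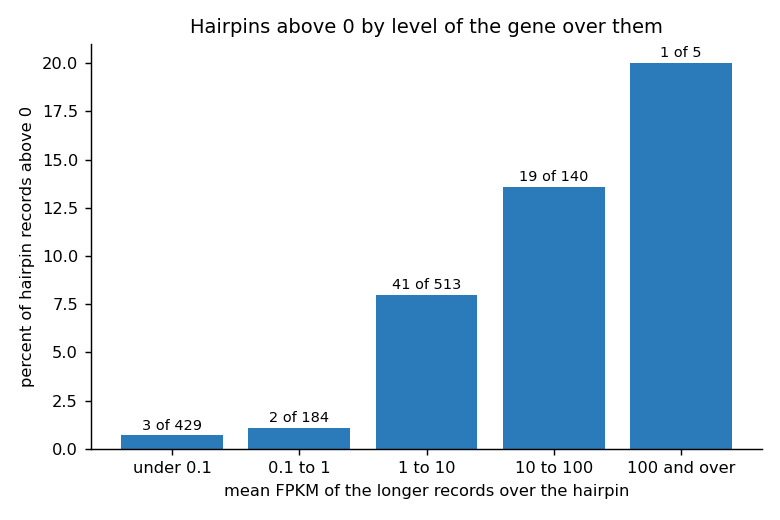
Percent of hairpin records above 0 in at least 1 library, by the mean FPKM of the longer deposited records that cover them. Bars run from 0.699% of 429 hairpins to 20.0% of 5 hairpins, and the numbers above the bars give the records above 0 and all records.

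In 90 hairpin values above 0 whose covering record was above 0 too, the hairpin's FPKM exceeded that of the covering record in 80, with a median ratio of 12.6. By plain density, which counts the reads over the full length, the hairpin exceeded it in 9 of 83, with a median ratio of 0.321. The order of hairpin and host therefore turned with the length that was used. In most of these values the plain density lay below the FPKM of the covering record. That FPKM is of the record's exons, while 57 of all 86 hairpins lie in introns. The compared values are therefore often not levels of the same bases.

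Among the other hairpins, named here after their values were seen, MIR454 was above 0 in 3 libraries. It lies in an intron of SKA2, a protein of the kinetochore, and had 44.1 and 0 FPKM in miR-28CT and 34.2 and 220.3 FPKM in miR-28BIO, from 4, 0, 3 and 7 reads. Its arms overlapped through the value in miR-28CT replicate 1. MIR6732 lies in ZC3H12A, which encodes a ribonuclease known to cut microRNA precursors, and MIR6840 in PILRB. MIR6732 had 1259.6 FPKM and MIR6840 had 649.9 FPKM, each from 5 reads and each in miR-28CT replicate 2 alone. MIR4653 and MIR3975, in introns of AP1S1 and GALNT1, were seen in miR-28BIO replicate 2 alone, from 7 and 6 reads.

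Over all records above 0, the FPKM had a median of 87.4 in miR-28CT replicate 1 (lowest 18.5, highest 837) and 114 in miR-28CT replicate 2 (0.774 to 9607). In miR-28BIO they had a median of 42.2 in replicate 1 (13.0 to 484) and 116 in replicate 2 (1.99 to 5327). The medians were higher in replicate 2 in both arms and overlapped between arms. The records were 56 to 164 bases long, with a median of 87.5, against 80 for the hairpins at 0. A longer record offers more places for a read, and the part of length in being above 0 was not tested.

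Hairpins that share a cluster were not above 0 together in the clusters of MIR25 and MIR15B. MIR25 sits with MIR93 and MIR106B in an intron of MCM7, a subunit of the replicative helicase. MIR25 had 90.4 and 125 FPKM in replicate 1 of miR-28CT and miR-28BIO, from 3 and 4 reads, and 0 in replicate 2 of both. MIR93 and MIR106B were at 0 in all 4 libraries. MIR15B, in an intron of the condensin gene SMC4, had 171 FPKM from 3 reads in miR-28CT replicate 2 alone, and its neighbour MIR16-2 was at 0 throughout. The 11 records of let-7 hairpins, the family most abundant in many differentiated cells, were at 0 in all 4 libraries. These names were chosen after their values were seen.

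SNORD and SNORA records were above 0 far more often. Of 302 SNORD records, which are C/D box guides of RNA methylation, 112 were above 0 in at least 1 library (37.1%) and 19 in all 4 (6.29%). Of 110 SNORA records, the H/ACA box guides of pseudouridylation, these were 69 (62.7%) and 16 (14.5%). Of 14 SCARNA records, 9 were above 0 in at least 1 library and 0 in all 4. For the 2015 hairpins the shares were 4.27% and 0.149%. The SNORD and SNORA records followed the hairpins in having more records above 0 in replicate 2 (81 and 79 SNORD records in miR-28CT and miR-28BIO, against 48 and 39 in replicate 1, and 52 and 59 SNORA records, against 44 and 30). The SCARNA records did so in miR-28BIO (4 in replicate 1 and 7 in replicate 2) and not in miR-28CT (6 and 3).

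The enzymes that make and use microRNAs, DROSHA, DICER1 and AGO2, were above 0 in all libraries. A list of 25 such genes had 29 tested records of 21 genes, of which limma called 0 in either direction. Without adjustment, 1 record had p under 0.05, with a lower level in miR-28BIO (over all tested, 2.09% were higher and 1.49% lower at that limit). With the replicate number as a block it was 1 higher and 2 lower (4.88% and 7.13% of all tested). The median log2 difference was -0.07, against -0.08 over all tested transcripts. DROSHA, which cuts hairpins from primary transcripts, had 12.1 and 3.22 FPKM in miR-28CT and 21.1 and 8.88 FPKM in the miR-28BIO libraries, summed over its records. DICER1, which cuts the hairpin's loop, had 16.3 and 5.45 FPKM in miR-28CT and 13.6 and 5.41 FPKM in miR-28BIO. AGO2, the Argonaute that can cleave its target, had 5.69 and 7.41 FPKM in miR-28CT and 5.75 and 13.0 FPKM in miR-28BIO. For DROSHA and DICER1 replicate 1 was above replicate 2 in both arms, and the arms of all 3 genes overlapped. Of the 29 tested records of this list, 4 had arms apart with miR-28BIO on top and 3 with miR-28CT on top. Over all tested transcripts these shares were 11.5% and 12%. Within each replicate number DROSHA and AGO2 were higher in miR-28BIO, AGO2 only slightly in replicate 1, and DICER1 was lower, only slightly in replicate 2. LIN28A and LIN28B, which block the processing of let-7, were at or near 0, with at most 0.0189 FPKM. A list of 57 genes known to host hairpins had 47 tested records, with 0 called in either direction, none with an unadjusted p under 0.05 and a median of -0.09. With the replicate number as a block, 4 of its records were higher and 2 lower in miR-28BIO at p under 0.05 before adjustment, and 0 were called. This is against the same 4.88% and 7.13% of all tested.

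The markers of the cell line were present in all 4 libraries. The 6 markers (KRT8, KRT18, KRT19, EPCAM, CDH1 and VIM) were all above 0 in each library and VIM, at 251, 212, 143 and 189 FPKM in the 4 libraries, was the most abundant. KLK3, which is low in DU-145, was at 0. The leukocyte, endothelial and erythroid markers PTPRC, PECAM1 and HBB were at 0, and the fibroblast marker COL1A1 had at most 0.178 FPKM.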

How the data were processed

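RNA from the pull out was sequenced in 4 libraries of single 50-base reads. The authors aligned reads to hg38 with TopHat2 (2.0.9) and deposited, per transcript, the FPKM of Cufflinks (2.1.1) with its interval, a status and the coverage signal; the coverage was not used. Symbols came from RefSeq and matched 97.1% of records. FPKM were divided by median-of-ratios factors (1.06, 0.850, 1.06 and 1.09). The log2(scaled FPKM + 0.1) was tested with limma 3.58.1 (R 4.3.3, Python 3.11.15), with a trend and Benjamini-Hochberg adjustment. This scale understates changes between levels near 0.1. In hairpins 1 read was worth many FPKM, so the scale sets 0 and 1 read far apart, and large differences there are not cautious estimates. The fit was run on simulated data at the spread of these data and at a much smaller spread. A pass was required only at the smaller spread, so power on data like these is not shown. Effective lengths assumed fragments of 200 ± 80 bases (mean and SD). Reads were inferred from the steps of levels and bounds. The files hold no counts, so count tests were not used.

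Members and lists were chosen with earlier results of these data known. Named were MIR28, hairpins called, above 0 in all libraries, apart between arms (at most 5 each way), highest in a library, overlapping structural RNAs in at least 3 libraries, or just inside the limit. A clause on hairpins sharing the seed of miR-28-5p was not applied. The methods describe 2 biological replicates with 2 samples per arm, and the titles number the libraries. That same-numbered libraries share a biological replicate is taken from this and is not stated. Their deviations from arm means correlated (Pearson r = 0.422 over 15587 transcripts, 0.226 over the 84 hairpins). Both replicate 2 libraries also turned reads into FPKM in another way, so the correlation cannot show a shared replicate. The series' design text counts 3 miR-28CT samples, the paper's methods 2, as deposited.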

Additional observations from a re-analysis of the deposited data

How the results depend on the processing

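Calls among hairpins were 0 under each pseudocount, filter and scaling, with sums per gene name, without the trend and with the replicate block. With the block, limma called 0 of the 84 tested hairpins and 0 records of either pathway list. Without adjustment, 3 of the 84 (3.57%) then had p under 0.05 in limma, all higher in miR-28BIO. The shares of all tested transcripts were 4.88% higher and 7.13% lower. Intervals were apart between arms in 0 hairpins, against 1028 higher and 691 lower of all 15587 tested transcripts. Most resolved hairpin levels rest on 1 or 2 reads, where the lower bound is 0. A record with such a level in its higher arm could not be apart, so nothing is read from that 0. The block changed no call. The median difference of the hairpins (0.35) was 0.37 with a pseudocount of 0.01, 0.26 with 1, 0.85 with a filter at 5 FPKM, 0.20 without a filter, 0.49 without scaling (median of all transcripts 0.08) and 0.55 with factors from records under 200 bases, which moved the median of all transcripts from -0.08 to 0.48. It ran from -4.28 to 4.47 with a library left out. Hairpins apart in favour of miR-28BIO (3) then numbered 5 to 35 of 58 to 78 tested (6.41% to 46.1%, against 23.9% to 30.8% of all transcripts), and in favour of miR-28CT (1) 1 to 31 (1.32% to 39.7%, against 25.5% to 37.5%). The records were chosen by being above 0, most of them in 1 library only, so nothing about the arms is read from these shifts.

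Hairpins above 0 numbered 16, 38, 22 and 48 in the 4 libraries. With a lower bound above 0 these were 9, 18, 8 and 18, and with at least 5 reads, a limit chosen after seeing the data, 2, 11, 1 and 10. With any status, a limit of 1 FPKM, a length under 120, sums per gene name or, also chosen after seeing the data, at least 1 whole read, they stayed within 1.5 times.

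Few reads per record limit all of this: 56.2% of the resolved levels rest on 1 or 2 reads, and 2 libraries an arm give little hold on spread. Reads in replicate 2 come from bounds alone. Effective lengths rest on assumed fragment sizes.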
